A study of Mus musculus with 6 samples.

Results

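To examine the signals that keratinocytes send to immune cells, 10 chemokine genes were followed in mouse keratinocytes lacking *Sox4*, *Sox11* or both. The genes were *Cxcl1*, *Cxcl2*, *Cxcl5*, *Cxcl14*, *Cxcl12*, *Ccl2*, *Ccl20*, *Ccl27a*, *Cxcl16* and *Cx3cl1*, listed by name as chemokines that skin cells make. All 10 were found on the array, through 13 of its 55681 probes, among 21368 genes that could be named. *Ccl27a* had 3 probes, *Cxcl12* had 2 and each other gene had 1. For these genes the brightest probe is reported, and the others are given as a range.

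Primary keratinocytes were grown from the skin of newborn pups, first on mitotically inactive J2 fibroblast feeder cells and then without feeders, in serum-containing medium. *Krt14-Cre*, which is active in basal epidermal cells, removed floxed *Sox4* in Sox4 cKO cells, floxed *Sox11* in Sox11 cKO cells, and both in Sox4/11 dcKO cells. Per the study's methods the floxed line was founded from *Sox12*-/- mice and the Cre line from FVB/N mice, and whether the cultures still carried the *Sox12* deletion is not given in the sources used here. There were 2 arrays per genotype, labelled as biological replicates, and each array carried knockout RNA in one dye channel and wild-type RNA in the other. The dyes were swapped between replicates, with knockout RNA in Cy5 on replicate 1 and in Cy3 on replicate 2. The sources do not say whether arrays shared wild-type RNA, so the p-values measure only the spread between these arrays.

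Each array reports a log2 ratio of knockout over wild type, negative where the knockout was lower. A probe was called changed when its limma adjusted p, over all probes, was below 0.05 and its log2 fold change exceeded 1.5 in size. Levels are normalised log2 intensities of a channel, which rank channels of the same probe but not different probes. The targeted genes matched the labels: *Sox4* had a log2 fold change of -2.52 in Sox4 cKO and in dcKO cells, and *Sox11* of -2.98 in Sox11 cKO and -3.43 in dcKO cells. All 12 keratinocyte marker genes were well above background on every array, and of these *Krt15* was called, lower in Sox4 cKO cells at -1.58. Of 10 fibroblast markers, *Col1a2* was above background on every array and 7, including *Col1a1*, *Col3a1* and *Pdgfrb*, in no channel. The pair of Sox11 cKO arrays stood apart from each other, with a correlation of -0.05 across all probes, against 0.157 for the Sox4 cKO pair and 0.483 for the dcKO pair.

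Chemokines are small secreted proteins that attract leukocytes along a gradient by binding receptors on the leukocyte surface. Epidermal keratinocytes release them when a barrier is wounded or infected, largely under the control of the transcription factor NF-kB, which binds short kB motifs near the start of many of these genes. The CXC chemokines *Cxcl1*, *Cxcl2* and *Cxcl5* attract neutrophils through the receptor CXCR2, whereas *Ccl2* attracts monocytes and *Ccl20* attracts cells that carry CCR6. *Cxcl14* and *Ccl27a* are made by resting epidermis.

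The sequences upstream of *Cxcl1*, *Cxcl2* and *Ccl20* are shown because they were the chemokine genes whose promoter entry held a kB motif. RefSeq promoter entries (GRCm38.p6, 250 bases before to 50 after the start) were matched for 7 of the 10 genes, and none was matched for *Cxcl5*, *Cxcl16* or *Ccl2*. Each line gives the 110 bases just before the annotated start, from 5′ to 3′ on the plus strand, with kB matches in capitals (GGNNTTTCC on either strand).
Cxcl1, chr5:90891135-90891244: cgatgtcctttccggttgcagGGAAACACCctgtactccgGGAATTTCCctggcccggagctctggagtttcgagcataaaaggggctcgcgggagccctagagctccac
Cxcl2, chr5:90903789-90903898: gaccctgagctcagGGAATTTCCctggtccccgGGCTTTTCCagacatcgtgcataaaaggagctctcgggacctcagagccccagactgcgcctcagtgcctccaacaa
Ccl20, chr1:83116656-83116765: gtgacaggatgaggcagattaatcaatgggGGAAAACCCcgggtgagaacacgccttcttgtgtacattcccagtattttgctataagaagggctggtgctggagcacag
*Cxcl1* and *Cxcl2* each held 2 matches. The longest stretch they shared had 14 bases, gggaatttccctgg, beginning 71 bases before the start of *Cxcl1* and 97 before that of *Cxcl2*. A kB match was present in 5.82% of all 32851 entries. Of the other motifs searched on both strands, TATAAA occurred in the entry of *Cx3cl1* (13.6% of all entries), TGANTCA, an AP-1 motif, in 1 of the 3 entries of *Ccl27a* (7.81%), and AACAANG, which contains the SOX core, in none of the 7 genes (14.1%). A match is a run of letters and was not tested for binding in these cells.

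**Figure D1:**
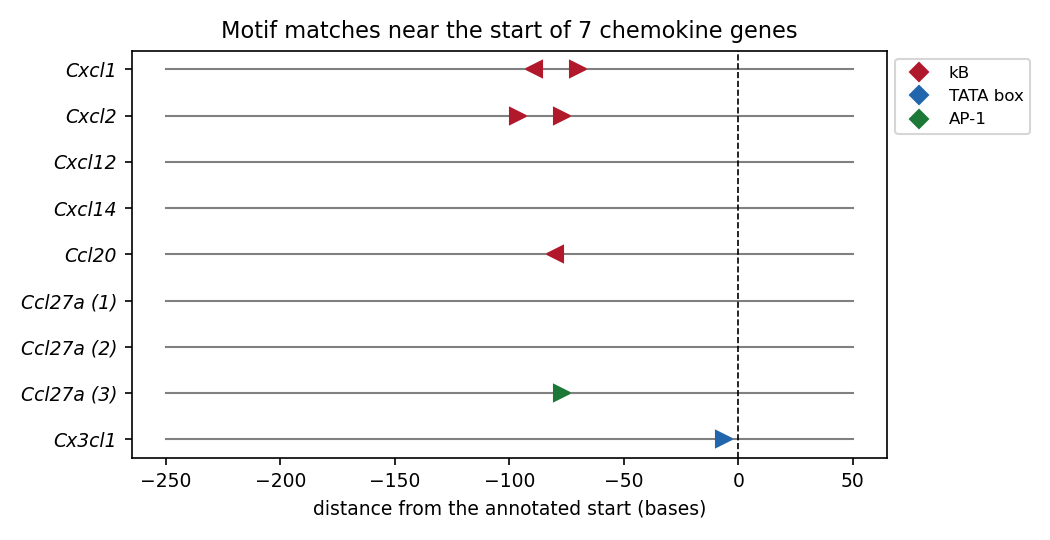
Motif matches in RefSeq promoter entries of 7 chemokine genes, plotted by distance in bases from the annotated start (dashed line). Each grey line is 1 entry, *Ccl27a* has 3 entries, and arrowheads mark the first base of a match and point right when it reads in the direction of the gene. The kB matches of *Cxcl1*, *Cxcl2* and *Ccl20* lie between 70 and 96 bases before the start.

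The chemokine genes mostly read lower in dcKO cells and varied in sign in the single knockouts. *Cxcl2* was the only one called in dcKO against wild type, and it was lower. None was called in Sox4 cKO or Sox11 cKO cells. Among all probes 0.756% were called for dcKO, 0.140% for Sox4 cKO and 0.0862% for Sox11 cKO cells. Without adjustment, 7 of the 10 genes had a limma p below 0.05 in dcKO cells, against 13.0% of all probes. In each single knockout 1 of the 10 did, against 7.40% of all probes for Sox4 cKO and 6.85% of them for Sox11 cKO. The 7 were *Cxcl1*, *Cxcl2*, *Cxcl5*, *Cxcl14*, *Cxcl16* and *Cx3cl1*, which were lower, and *Ccl27a*, which was higher. The shares of all probes include dim ones. Of 55584 probes with a ratio on every array, 30001 were above background in some channel. Of the 10 chemokine genes, 2 were above it in none, so these shares are not matched for brightness. The median log2 fold change over the 10 genes stood at -0.98 for dcKO, at -0.16 for Sox4 cKO and at -0.11 for Sox11 cKO cells, while over all probes it was -0.0042, 0.0016 and -0.0017.

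**Figure D2:**
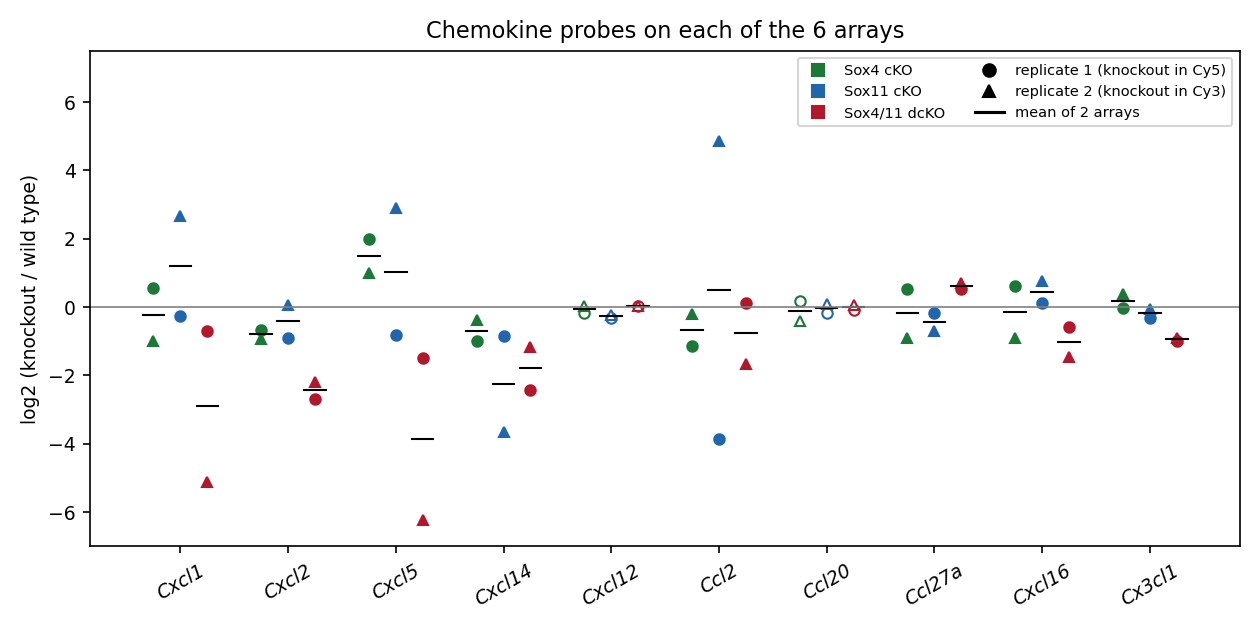
Log2 ratio of knockout over wild type for the brightest probe of each chemokine gene. Colours give the genotype, circles replicate 1, triangles replicate 2, black bars the mean of 2 arrays, and open symbols the 2 genes, *Cxcl12* and *Ccl20*, that were above background in no channel. The arrays of a genotype lay close together for *Cxcl2* in dcKO (-2.68 and -2.19) and far apart for *Ccl2* in Sox11 cKO (-3.86 and 4.85).

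*Cxcl2*, a neutrophil attractant that keratinocytes release early after injury, was measured at log2 ratios of -2.68 and -2.19 on the dcKO arrays. Its fold change there was -2.43 ± 0.35 (SD, n = 2; limma adjusted p = 0.00349). The knockout channel was not well above background on either dcKO array whereas the wild-type channel was on both. With the dim knockout level bounded, the gene read 5.36-fold lower in dcKO cells, close to the measured 5.41-fold. This value sets the mean wild-type level against, on each array, the higher of the knockout's own level and the lowest level of any probe well above background. It is not a minimum, as it ignores the spread between arrays and depends on the background correction. The log2 fold change was -1.63 with an offset of 50 and -5.30 with the scanner's processed signals. As the arrays measure pooled RNA, fewer expressing cells and less RNA per cell cannot be told apart. In Sox4 cKO cells the ratios were -0.66 and -0.93, and in Sox11 cKO cells they were -0.90 and 0.05, so that 5 of 6 arrays lay below 0. The Sox4 cKO mean of -0.79 was not called (limma adjusted p = 0.434), nor was the Sox11 cKO mean of -0.42 (limma adjusted p = 0.817).

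The difference between genotypes in these ratios to wild type was tested for *Cxcl2* as well. The dcKO minus Sox11 cKO difference in log2 ratios was -2.01 ± 0.30 (SE; limma adjusted p = 0.0488), the only chemokine called in that comparison, in which 0.449% of all probes were called. On Sox11 cKO replicate 2 neither channel was well above background, so the ratio of 0.05 there compares 2 dim signals, and both dcKO knockout channels were dim, so the size of this difference is uncertain. Against Sox4 cKO the difference in ratios was -1.64 ± 0.30 (SE; limma adjusted p = 0.0723), which did not pass, and 0.562% of all probes did. No chemokine was called between Sox4 cKO and Sox11 cKO, where 0.0108% of all probes were. These contrasts and those against wild type rest on the same arrays. The dcKO call against wild type was lost without dcKO replicate 1 (-2.36, limma adjusted p = 0.105) and without dcKO replicate 2 (-2.51, limma adjusted p = 0.0876). An offset of 50 in the background correction also ended it (-1.63, limma adjusted p = 0.0586), as did the scanner's processed signals (-5.30, limma adjusted p = 0.142). The call against Sox11 cKO was lost without either dcKO array (limma adjusted p = 0.208 and 0.268) and without Sox11 cKO replicate 2 (-1.59, limma adjusted p = 0.0711).

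The channel levels behind the *Cxcl2* ratio were compared next. In the dcKO channels its level was 5.42 on replicate 1 and 5.09 on replicate 2. The knockout channels of the other arrays read 5.19 and 5.54 in Sox4 cKO and 5.94 and 4.85 in Sox11 cKO cells. The dcKO levels thus lay inside the range of the single knockouts. However, both dcKO channels and those of Sox4 cKO replicate 1 and Sox11 cKO replicate 2 were not well above background. The overlap therefore cannot show whether dcKO cells held less *Cxcl2* than the single knockouts. The wild-type channels of the dcKO arrays read 8.10 and 7.28, above those of the other 4 arrays, which ran from 4.79 to 6.84. Levels on different arrays were compared after quantile normalisation of mean intensity, which assumes that arrays have the same overall distribution.

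**Figure D3:**
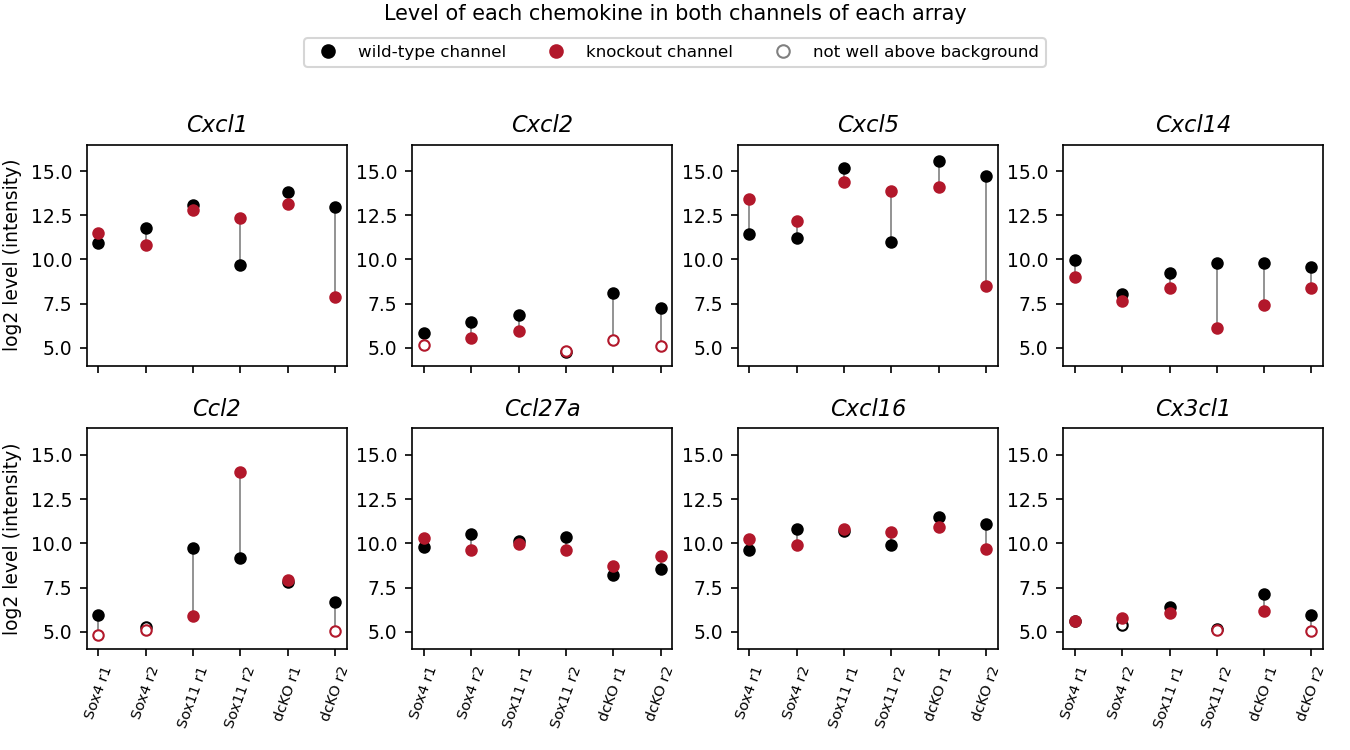
Normalised log2 level of 8 chemokine genes in the wild-type channel (black) and the knockout channel (red) of each of the 6 arrays, joined by a grey line; r1 and r2 are replicates and open circles mark channels not well above background. For *Cxcl2* the 2 dcKO arrays hold the highest wild-type levels, 8.10 and 7.28, and for *Cxcl1* and *Cxcl5* the knockout channel of dcKO replicate 2 is the lowest of all 12 channels.

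*Cxcl1* and *Cxcl5*, which attract neutrophils through the same receptor, were well above background in all 12 channels. *Cxcl1* had log2 ratios of -0.69 and -5.11 on the dcKO arrays. Both were below 0, with replicate 2 far below replicate 1, and the mean of -2.90 ± 3.12 (SD, n = 2) did not pass (limma adjusted p = 0.236). In Sox4 cKO cells *Cxcl1* gave 0.54 and -0.98, and in Sox11 cKO cells -0.26 and 2.66, so both single knockouts straddled 0.

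*Cxcl5* also had its lowest ratio on dcKO replicate 2 and its highest on Sox11 cKO replicate 2. Its ratios were -1.48 and -6.23 in dcKO cells, a mean of -3.85 ± 3.36 (SD, n = 2; limma adjusted p = 0.163). They were 1.99 and 0.99 in Sox4 cKO cells, both above 0 (mean 1.49; limma adjusted p = 0.834), and -0.83 and 2.89 in Sox11 cKO cells (mean 1.03; limma adjusted p = 0.970). The tested difference, dcKO minus Sox4 cKO, was -5.34 ± 1.58 and was not called (SE; limma adjusted p = 0.218). For *Cxcl1* that difference was -2.68 ± 1.38 (SE; limma adjusted p = 0.519). Without dcKO replicate 2 these differences were -2.29 for *Cxcl5* and -0.12 for *Cxcl1*, and without dcKO replicate 1 they were -8.40 and -5.24.

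The calls for these genes changed with the arrays that entered the fit. Without either of the Sox11 cKO arrays *Cxcl1*, *Cxcl5* and *Cxcl14* were called lower in dcKO beside *Cxcl2*, with unchanged fold changes and limma adjusted p = 0.000969, 0.000633 and 0.000187. In these fits the spread comes from the Sox4 cKO and dcKO arrays alone, after removal of the shared dye term. The SE of the *Cxcl1* value was then 0.36, although its dcKO arrays had an SD of 3.12. These p-values therefore do not measure the plain spread between the dcKO arrays. The dcKO minus Sox4 cKO differences were also unchanged in these fits, at -2.68 for *Cxcl1*, -1.64 for *Cxcl2* and -5.34 for *Cxcl5*. Without Sox11 cKO replicate 1 the fitted Sox11 cKO values of *Cxcl1* and *Cxcl5* were 4.15 and 4.33, where the remaining array read 2.66 and 2.89. Without replicate 2 they stood at -1.75 and -2.27, where the remaining array read -0.26 and -0.83. Fitted value and ratio differ by a dye term estimated from the other genotypes. Without dcKO replicate 2 the *Cxcl1* value was -0.34 and that of *Cxcl5* -0.80, and without dcKO replicate 1 they were -5.46 and -6.91, so 1 array carried most of either value. The dcKO count of called chemokines was 4 without either Sox11 cKO array, where 0.986% of all probes were called. It was 0 without dcKO replicate 1 and 0 without replicate 2, where 0.228% and 0.223% of all probes were called.

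**Figure D4:**
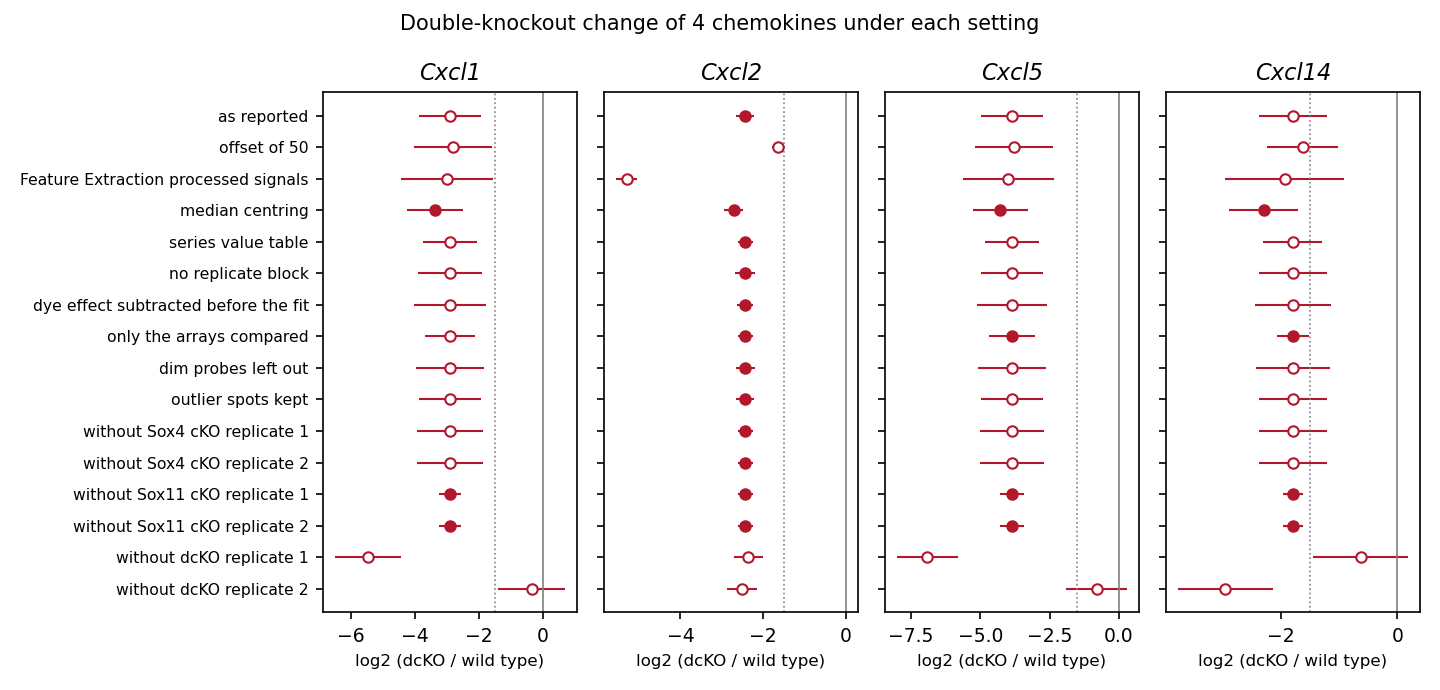
Log2 fold change of dcKO over wild type for 4 chemokine genes under each processing alternative and with each array left out. Points are estimates, bars the limma SE, filled points passed both thresholds, the solid line is 0 and the dotted line is a log2 fold change of -1.5. *Cxcl2* was called in the reported fit, and *Cxcl1* and *Cxcl5* moved towards 0 without dcKO replicate 2, to -0.34 and -0.80.

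Levels of *Cxcl1* and *Cxcl5* also varied among wild-type channels. For *Cxcl5* the 6 wild-type levels ran from 11.0 to 15.6 with a median of 13.1, a range of 4.59. For *Cxcl1* they ran from 9.69 to 13.8 with a median of 12.4, a range of 4.13. The wild-type channels of the dcKO arrays and of Sox11 cKO replicate 1 were the 3 highest for both genes, and that of Sox11 cKO replicate 2 was the lowest. Over the 19058 probes well above background in all wild-type channels, the median range was 0.83 and the 95th percentile 2.22. In the knockout channels dcKO replicate 2 read 8.52 for *Cxcl5* and 7.85 for *Cxcl1*, the lowest of the 12 channels for either gene. Its replicate read 14.1 and 13.1, and for *Cxcl1* this was the highest of the 6 knockout channels.

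In the GRCm38.p6 gene table *Cxcl5*, *Ppbp*, *Pf4*, *Cxcl3*, *Cxcl15*, *Cxcl1* and *Cxcl2* follow each other in this order on chromosome 5, with no other gene between them. The neighbours did not share the dcKO pattern throughout. *Cxcl3*, another CXCR2 ligand, gave 0.01 and -2.88 on the dcKO arrays, 2.58 and 2.96 on those of Sox4 cKO and 0.59 and 3.94 on those of Sox11 cKO, so it was higher on all 4 single-knockout arrays. None of its comparisons with wild type passed (limma adjusted p = 0.576 for dcKO, 0.495 for Sox4 cKO and 0.613 for Sox11 cKO). *Ppbp*, which encodes the precursor of the platelet chemokine CXCL7, gave 3.04 and -0.45 in dcKO cells (limma adjusted p = 0.383). *Pf4* and *Cxcl15* were above background in no channel.

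*Cxcl14*, a chemokine of resting epithelium, was lower in the knockout on all 6 arrays. The Sox4 cKO arrays gave log2 ratios of -1.01 and -0.38, the Sox11 cKO arrays -0.84 and -3.64 and the dcKO arrays -2.42 and -1.18. Among 20655 probes well above background on every array, 2.50% were lower on all 6, and *Cxcl14* was the only one of the 5 chemokine genes so measured. No genotype passed on its own. The mean was -0.69 ± 0.44 for Sox4 cKO (SD, n = 2; limma adjusted p = 0.856), -2.24 ± 1.98 for Sox11 cKO (SD, n = 2; limma adjusted p = 0.360) and -1.80 ± 0.88 for dcKO (SD, n = 2; limma adjusted p = 0.220). Its wild-type levels lay between 8.03 and 9.996, and 3 of the 6 knockout levels lay within that range. The others were below it, at 6.15 on Sox11 cKO replicate 2, 7.41 on dcKO replicate 1 and 7.64 on Sox4 cKO replicate 2. The dcKO value was -0.63 without dcKO replicate 1 and -2.96 without replicate 2. Without Sox11 cKO replicate 1 the Sox11 cKO value became -4.11 and was called (limma adjusted p = 3.78e-05), and without replicate 2 it was -0.37 (limma adjusted p = 0.9997).

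*Cxcl12*, the ligand of CXCR4 that dermal fibroblasts make, was above background in no channel with either probe, so no change could be measured. The same held for *Ccl20*, whose promoter carries a kB match, and the flags do not show that either transcript was absent. The log2 ratios of *Ccl20* ran from -0.40 to 0.19 over the 6 arrays.

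*Ccl2*, the monocyte attractant also known as MCP-1, gave the most contrary values. It had 10 spots per array, and its mean log2 ratio was -3.86 on Sox11 cKO replicate 1 and 4.85 on replicate 2. Spots on one array lay close together, with an SD of 0.22 and 0.15 on these arrays, so the arrays differed by far more than the spots of an array. In Sox11 cKO cells the mean was 0.50 ± 6.16 (SD, n = 2; limma adjusted p = 0.993). The knockout level was 5.89 on replicate 1 and 14.0 on replicate 2, against wild-type levels of 9.75 and 9.18, so the knockout channel of replicate 2 was the highest of all 12. Without replicate 1, *Ccl2* was called higher in Sox11 cKO cells (5.06, limma adjusted p = 0.000634), and without replicate 2 it was called lower (-4.06, limma adjusted p = 0.0119).

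In dcKO cells *Ccl2* had ratios of 0.11 and -1.65, a mean of -0.77 that did not pass (limma adjusted p = 0.914). Without dcKO replicate 2 the fitted value was 2.52 although the remaining array read 0.11. The shared dye term was then estimated from the other genotypes, so 2.52 is not a measured change. In Sox4 cKO cells the ratios were -1.13 and -0.20 and the knockout channel was not above background on either array. The wild-type channel was above background on 1 of the 2, and the gene was not called (limma adjusted p = 0.959). Fibroblasts and macrophages also make this chemokine. Of 10 fibroblast markers 3 were above background in some channel, and of 9 immune markers matched 6 were. No marker of either list, nor of the endothelial and melanocyte lists, was called in any genotype, and the part of such cells in the *Ccl2* levels was not tested.

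*Ccl27a* encodes a chemokine that draws CCR10-bearing T cells to skin. Its reported probe gave 0.53 and 0.71 in dcKO cells, both higher, with a mean of 0.62 ± 0.13 (SD, n = 2; limma adjusted p = 0.349). The fitted value was 1.20 without dcKO replicate 1 and 0.046 without replicate 2. The remaining arrays read 0.71 and 0.53 before the dye term, estimated from the other genotypes, was removed. Under median centring the value was 0.12. The other 2 probes gave dcKO means of 0.19 and 0.37, also not called. The means of the 3 probes ranged from -0.51 to -0.13 in Sox4 cKO and from -0.61 to -0.18 in Sox11 cKO cells. For each probe the Sox4 cKO arrays lay on opposite sides of 0, at 0.52 and -0.90 for the reported probe. The wild-type levels on the dcKO arrays, 8.21 and 8.55, were the lowest of the 6, and the rest ran from 9.77 to 10.5. Nearly identical copies of this gene lie nearby in the mouse genome and their transcripts may hybridise to the same probes, so the values are uncertain as to the copy.

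*Cxcl16* and *Cx3cl1* are made as membrane proteins and are released when the proteases ADAM10 and ADAM17 cut them. *Cx3cl1*, or fractalkine, had log2 ratios of -0.98 and -0.90 on the dcKO arrays, a mean of -0.94 ± 0.06 (SD, n = 2; limma adjusted p = 0.0266). It passed the test but not the fold threshold. By adjusted p alone 2.05% of all probes passed in dcKO cells, and of the chemokine genes *Cxcl2* and *Cx3cl1* did. The wild-type channel of *Cx3cl1* was well above background on both dcKO arrays, and the knockout channel on 1 of them. Its adjusted p rose above 0.05 without either Sox4 cKO array (limma adjusted p = 0.0565 for both) and without dcKO replicate 1 (limma adjusted p = 0.192) or 2 (limma adjusted p = 0.345). It was also above 0.05 without the dye term (limma adjusted p = 0.0578), with an offset of 50 (limma adjusted p = 0.0607) and with the processed signals (limma adjusted p = 0.240). In Sox4 cKO cells it gave -0.03 and 0.38, and in Sox11 cKO cells -0.33 and -0.04. The dcKO minus Sox4 cKO difference was -1.12 ± 0.21 (SE; limma adjusted p = 0.0748).

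*Cxcl16*, which binds CXCR6, gave -0.57 and -1.45 in dcKO cells, a mean of -1.01 ± 0.62 (SD, n = 2; limma adjusted p = 0.210). It was higher on both Sox11 cKO arrays, at 0.11 and 0.77, and gave 0.61 and -0.89 in Sox4 cKO cells. Its levels varied less than those of the neutrophil attractants, from 9.62 to 11.5 in the wild-type channels. The proteases did not pass either, with dcKO log2 fold changes of 0.55 ± 0.06 for *Adam10* (SD, n = 2; limma adjusted p = 0.225) and 0.17 ± 0.25 for *Adam17* (SD, n = 2; limma adjusted p = 0.778).

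Extremes fell on the same arrays for several of these genes. Of the 5 chemokine genes well above background on every array, *Cxcl1*, *Cxcl5* and *Cxcl16* had their lowest ratio on dcKO replicate 2, as did 17.3% of all probes so measured. The same 3 genes had their highest ratio on Sox11 cKO replicate 2, as did 20.7% of those probes. *Cxcl14* and *Ccl27a* followed neither.

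Most of the other chemokine genes were not above background. Of 28 listed, 26 were matched and 7 were above background in some channel, *Cxcl3*, *Ppbp*, *Ccl5*, *Ccl6*, *Ccl8*, *Ccl19* and *Ccl25*. None was called in any genotype. *Ccl19*, a ligand of CCR7, stood at -0.45 ± 0.08 in dcKO (SD, n = 2; limma adjusted p = 0.2495). The interferon-induced *Cxcl9* and *Cxcl10* were above background in no channel. The median dcKO log2 fold change of the list was 0.05.

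Receptors were matched for all 23 genes listed, and 8 were above background in some channel. None was called. *Cxcr2*, the receptor for *Cxcl1*, *Cxcl2* and *Cxcl5*, gave 1.07 and 0.66 on the dcKO arrays (mean 0.87; limma adjusted p = 0.0510), just outside the test. *Ccr8* gave -0.80 and -0.61 there (limma adjusted p = 0.0837) and *Ccrl2* 0.09 and -0.15 (limma adjusted p = 0.975). *Ackr3*, a scavenging receptor for CXCL12, was chosen after its values were seen, and had ratios of 2.33 and 2.31 in Sox4 cKO cells (limma adjusted p = 0.0984).

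**Figure D5:**
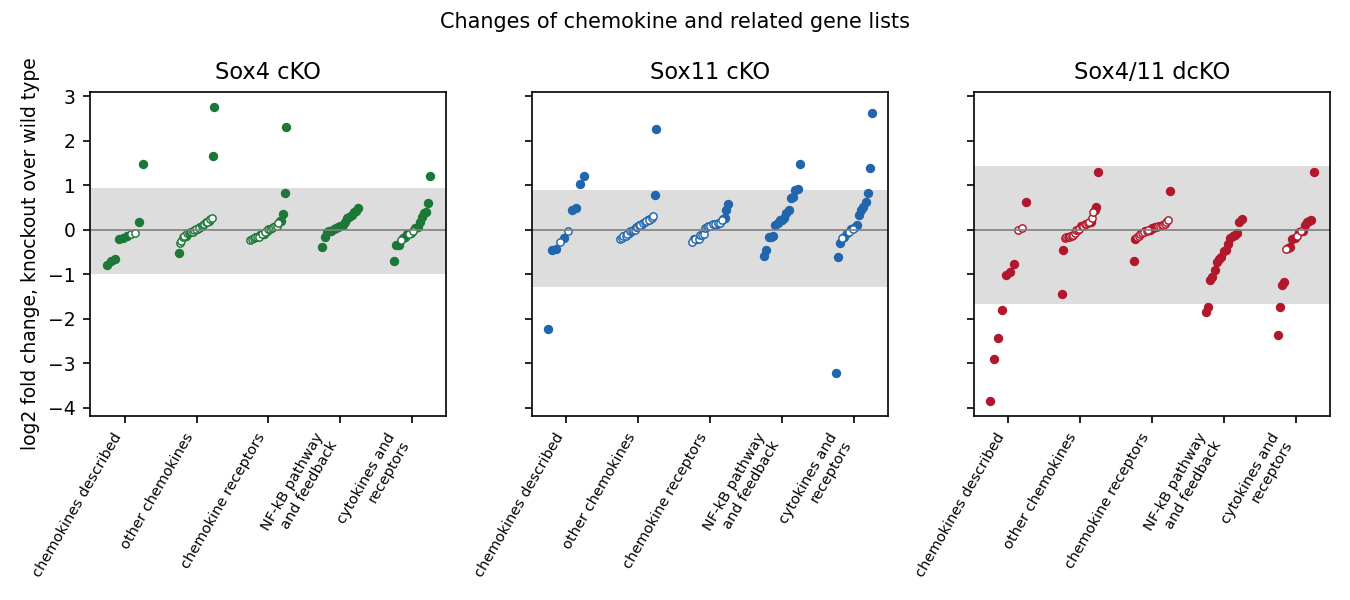
Log2 fold change over wild type of the 10 chemokine genes and of 4 related gene lists in each genotype. Each point is the brightest probe of a gene, open points were above background in no channel, and the grey band spans the 1st to the 99th percentile of probes well above background on every array. In dcKO cells *Cxcl5*, *Cxcl1*, *Cxcl2* and *Cxcl14* lie below the band, and most of the NF-kB list lies below 0, with a median of -0.47.

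Genes of the NF-kB pathway and its feedback inhibitors were all above background in some channel. None of the 17 was called in any genotype. In dcKO cells 11 were lower on both arrays and 1 was higher on both, and the median log2 fold change was -0.47. Among probes well above background on every array 35.6% were lower on both dcKO arrays, and their median was -0.03. *Nfkbia*, the inhibitor that NF-kB itself induces, gave -0.64 and -2.83 in dcKO cells (mean -1.73; limma adjusted p = 0.108). *Bcl3*, a nuclear partner of NF-kB, gave -0.64 and -3.08 (mean -1.86; limma adjusted p = 0.0722), and *Tnfaip3*, which encodes the inhibitor A20, gave -1.02 and -1.25 (mean -1.14; limma adjusted p = 0.0723). *Nfkbia*, *Bcl3* and *Tnfaip3* had their lowest ratio on dcKO replicate 2. These genes were named for their large dcKO changes, and that choice favours a lowest ratio on a dcKO array. A cause shared with the chemokines was not tested. The Sox4 cKO median of the list was 0.09 and its Sox11 cKO median 0.23.

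Cytokines that induce chemokines in keratinocytes, and their receptors, were matched for 18 of 21 genes. None was called against wild type. *Il17rc*, a subunit of the IL-17 receptor, gave 0.92 and 1.69 in dcKO cells and passed the test but not the fold threshold (mean 1.30; limma adjusted p = 0.0122). The growth factor genes *Csf2* and *Csf3* gave -1.76 and -2.98, and -0.70 and -2.79, in dcKO cells (limma adjusted p = 0.154 and 0.339). In Sox11 cKO cells *Csf2* gave 0.87 and 4.38 and *Csf3* gave -0.75 and 2.01. *Il1b*, *Il6* and *Il17c* were above background in no channel. The median dcKO log2 fold change of this list was -0.16.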

How the data were processed

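There were 6 arrays of 2 colours, 2 for each of 3 genotypes, and titles gave each array its genotype. Spot intensity, unnormalised and linear, was read from the scanner output that the authors deposited, made with Agilent Feature Extraction 11.0.1.1. The same deposited output carries processed intensity values and a log10 ratio of red over green. A further deposited table gives log2 ratios after background correction, loess and dye removal by the authors. Its direction was knockout over wild type on each array when set against the scanner values (r from 0.890 to 0.952 across probes), its column medians ran from -0.0066 to 0.0045, and it served only as an alternative.

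Median signals of the spots were background corrected with limma 3.58.1 under R 4.3.3 (normexp, offset 16) and loess normalised within arrays. The 3671 control spots were left out, spots marked as outliers (194 to 288 per array) were set to missing, and spots of a probe were averaged. No spot was marked saturated. Each of 55681 probes was fitted over all 6 arrays with a term per genotype and a shared dye term, which equals a block on the replicate number. The model left 2 residual degrees of freedom, with 5.37 added by the empirical Bayes prior, and within a comparison p-values were adjusted over all probes (Benjamini-Hochberg). The 6 comparisons were each genotype against wild type and the differences between genotypes. The fit was also run on data simulated from the same model, which checks the code and not whether the model suits these arrays. Channel levels were taken after Aquantile normalisation. A single slide and scan held every array, which leaves no slide or scan batch to test, and the number of arrays limits the precision.

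Same-numbered arrays deviated together from their genotype means (correlations 0.316, 0.244 and 0.125 across probes), and share their dye orientation. Of 29786 probes with an accession, 95.1% were named through RefSeq for GRCm38.p6. The array was designed on an earlier build, so only promoter coordinates of that table are given. All chemokine probes are described. Genes of the related lists are named where called or where among the 3 largest dcKO changes above background in both dcKO arrays. Others are named only for their background flags, except *Ackr3*, *Tslp*, *Tlr2* and *Il1a*, which were picked after their values were seen. The chemokine genes, the lists and the tests were chosen with earlier results of these data known. The alternatives tried were an offset of 50, processed signals, median centring, the table of log2 ratios, other dye handling, a filter on dim probes, outlier spots kept, other probes of a gene and each array left out.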

Additional observations from a re-analysis of the deposited data

Results flagged for a closer look

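The ratio of *Cxcl2* to wild type differed between genotypes in a test of the difference itself, dcKO minus Sox11 cKO being -2.01 on the log2 scale (limma adjusted p = 0.0488). The ratios were -2.68 and -2.19 on the dcKO arrays and -0.90 and 0.05 on the Sox11 cKO arrays. The knockout levels overlapped, at 5.42 and 5.09 in dcKO and 5.94 and 4.85 in Sox11 cKO cells, while the wild-type levels were 8.10 and 7.28 on the dcKO arrays and 6.84 and 4.79 on the Sox11 cKO arrays. Neither channel of Sox11 cKO replicate 2 was well above background, nor was the knockout channel of either dcKO array. The knockout levels that overlapped were therefore mostly dim signals. Over the alternatives the adjusted p ran from 0.00229 to 0.359, and no explanation was tested.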

How the results depend on the processing

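Of 486 values of single chemokine genes recomputed under the alternatives, 435 kept their direction and their side of the thresholds, 10 changed direction, 29 gained a call and 12, all of *Cxcl2*, lost one. The number of chemokine genes called in dcKO against wild type, 1 as reported, was 0 with an offset of 50 and 0 with the processed signals, 5 under median centring and 3 with only the arrays compared. For dcKO minus Sox4 cKO, 0 as reported, it was 1 under median centring, 1 with the table of log2 ratios and 3 with only the arrays compared. For dcKO minus Sox11 cKO, 1 as reported, it was 0 with an offset of 50, with the processed signals, with dim probes left out and with outlier spots kept, and 2 under median centring. Without the replicate block, which here is the dye term, dcKO minus Sox11 cKO gave 0 called genes, *Cxcl2* standing at an unchanged -2.01 (limma adjusted p = 0.109), while dcKO against wild type gave 1, and the block changed no other count. The share of all probes called under these processing alternatives is not given here, so the counts are not read as a result about chemokines. The cause of these changes was not tested.

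With each array left out in turn the count ran from 0 to 4 in dcKO and 0 to 4 in Sox11 cKO against wild type, and stayed at 0 in Sox4 cKO. It ran from 0 to 3 for dcKO minus Sox4 cKO, 0 to 6 for dcKO minus Sox11 cKO and 0 to 3 for Sox4 cKO minus Sox11 cKO. The log2 fold changes whose sign turned when an array was left out ranged, in Sox4 cKO cells, from -0.61 to 0.17 for *Cxcl1*, -1.40 to 0.0085 for *Cxcl14*, -1.93 to 0.60 for *Ccl2*, -0.81 to 0.44 for *Ccl27a* and -0.84 to 0.56 for *Cxcl16*. In Sox11 cKO cells they ranged from -1.75 to 4.15 for *Cxcl1*, -2.27 to 4.33 for *Cxcl5*, -4.06 to 5.06 for *Ccl2* and -0.48 to 1.36 for *Cxcl16*, and in dcKO cells from -4.06 to 2.52 for *Ccl2*. An array left alone in its genotype was assumed to vary like the rest. Its value was its own ratio after removal of a dye term estimated from the other genotypes, so size and sign can differ from that ratio. In Sox4 cKO cells *Ccl2* reached 0.60 although both arrays lay below 0. Shares of all probes called are given only for dcKO against wild type without a Sox11 cKO or dcKO array. The other counts are therefore not read as a result about chemokines. Mean spot signals were planned and not run. Signal over background limited *Cxcl12* and *Ccl20*, which have no measured change, and *Cxcl2*, *Ccl2* and *Cx3cl1*, which were dim in some channels.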

Other observations

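*Tslp*, a cytokine that epithelial cells release towards dendritic and innate lymphoid cells, was singled out after its values were seen. It gave log2 ratios of -1.71 and -4.72 in Sox11 cKO, -0.11 and -1.30 in Sox4 cKO and -0.43 and 0.05 in dcKO cells, and was called in none. *Tlr2*, a receptor for bacterial lipoproteins, gave 0.18 and 2.61 in Sox11 cKO and -0.12 and -2.25 in dcKO cells, and *Il1a*, an alarm cytokine of keratinocytes, gave -0.54 and 0.77, and 0.10 and -2.60. Neither was called. *Tlr2* and *Il1a* were also picked after their values were seen. That both had their lowest ratio on dcKO replicate 2 is therefore not read as a pattern.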
